A study of Homo sapiens with 4 samples.

Results

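The genes described here were 10 nuclear genes for mitochondrial chaperones and proteases, namely HSPD1, HSPE1, DNAJA3, LONP1, CLPP, CLPX, AFG3L2, SPG7, YME1L1 and HTRA2. They were chosen by symbol, as a readout of the mitochondrial unfolded protein response, among 26726 genes with read counts. All 10 were found, and all 10 passed the filter on low counts that left 15104 genes for testing. The cells were HN12, an established line of human head and neck squamous cell carcinoma (HNSCC), grown without further treatment. ATAD3A, an ATPase anchored in the mitochondrial inner membrane, had been knocked out (KO) with CRISPR/Cas9, and unedited parental cells (WT) served as the control. RNA was sequenced from 2 KO and 2 WT libraries, each from a culture of its own, with total counts of 18943547 and 16805766 in KO and 15173766 and 13569971 in WT. The study grew its KO cells from single cells, and which clone gave these libraries is not given in the sources used here, so loss of ATAD3A and differences between a clone and the parental population cannot be told apart.

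Proteins imported into mitochondria are folded by a chaperone system of their own. HSP60 (HSPD1) forms a barrel that is capped by HSP10 (HSPE1), and mitochondrial HSP70 (HSPA9) works with J-domain co-chaperones such as DNAJA3. Misfolded proteins of the matrix are degraded by LONP1 and by the CLPXP protease, in which the ring of CLPX unfolds substrates and feeds them to CLPP. Inner membrane proteins are degraded by the m-AAA protease, built from AFG3L2 alone or with SPG7 and open to the matrix, and by the i-AAA protease YME1L1, which faces the intermembrane space together with the serine protease HTRA2. In the mitochondrial unfolded protein response, misfolding inside the organelle is answered in the nucleus by transcription of such chaperones and proteases, and in mammalian cells ATF4, ATF5 and DDIT3 (CHOP) are the transcription factors most often linked to it.

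The targeted gene was examined first. ATAD3A was at 38.1 and 30.0 CPM (read counts scaled to a common library total with TMM factors) in the KO libraries and at 116 and 106 CPM in WT. Both KO libraries lay far below both WT libraries, with a log2 fold change (KO minus WT) of −1.70 ± 0.091 (SE, n = 2 per group; adjusted p = 1.58e-17, edgeR). Its neighbour and close paralog ATAD3B stood at 157 and 142 CPM in KO and 72.5 and 81.1 CPM in WT, a log2 fold change of 0.96 ± 0.072 (edgeR adjusted p = 1.76e-13), and reads that fit both genes could be counted for either. ATAD3C was at 2.60, 2.62, 2.2 and 1.94 CPM in KO 1, KO 2, WT 1 and WT 2, with no call (edgeR adjusted p = 0.533).

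The labelled cell type was checked against markers. All 8 squamous epithelial markers were measured, and their summed level was 4741 and 4710 CPM in KO against 1987 and 1991 CPM in WT. KRT5, a basal keratin and the most abundant of them, was at 2468 and 2440 CPM in KO and 402 and 391 CPM in WT. KRT5, KRT14, KRT6A, KRT17 and SFN were called higher in KO, and TP63, CDH1 and EPCAM lower, so the squamous markers moved with the groups, and their part in the results below was not tested. Of the fibroblast markers, COL1A1 was at 11.3 and 13.9 CPM in KO and 14.6 and 11.4 CPM in WT, while COL1A2 and COL3A1 had at most 3 counts in any library. PDGFRB was at 0.434 and 0.854 CPM in KO and 2.07 and 1.08 CPM in WT, with WT the higher pair and no call (edgeR adjusted p = 0.0764). Among the immune markers, CD14 was the most abundant, at 2.12 and 3.78 CPM in KO and 2.71 and 3.52 CPM in WT, and PTPRC, the common leukocyte antigen, was below 0.5 CPM in every library. Only 4 of the 6 fibroblast, 3 of the 5 immune and 3 of the 4 endothelial markers sought were among the genes with counts. The 3 endothelial markers found summed to 2.39, 1.52, 2.2 and 2.16 CPM in KO 1, KO 2, WT 1 and WT 2. VWF led them except in WT 1, where CDH5 was at 0.969 CPM and VWF at 0.775 CPM.

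The promoters are shown because the response described above acts on the transcription of these genes. RefSeq promoter windows (GRCh38.p14), which run from 250 bases before to 50 bases after an annotated transcription start, were matched for 8 of the 10 genes, with none for CLPP and YME1L1. An element of the nuclear respiratory factor NRF1 was searched on both strands as the letters GCGC, any base and then TGCGC. It was in the windows of 6 genes, and 11% of the 12357 listed genes with a window held it. The 6 include HSPD1 and HSPE1, whose sequence had been seen before these letters were chosen. The sites below are in capitals within 10 bases on either side, 5′ to 3′ on the strand of the gene, with one site per gene. The RefSeq starts of HSPE1 and HSPD1 lie head to head, although in the GENCODE gene positions given below HSPE1 lies within the span of HSPD1. The site printed for HSPE1 is the same piece of DNA that lies in the HSPD1 window on the other strand.
HSPE1, chr2:197500322-197500351, plus strand: tggggcgagcGCGCCTGCGCgctgggtgat
CLPX, chr15:65185413-65185442, minus strand: cgggcctaggGCGCAGGCGCgcgcaagctc
DNAJA3, chr16:4425771-4425800, plus strand: cgcgtacggtGCGCCTGCGCgtgcgcgacg
SPG7, chr16:89508318-89508347, plus strand: tgtggggaccGCGCAGGCGCcacgtcagac
LONP1, chr19:5720633-5720662, minus strand: ctgaagccctGCGCATGCGCatcaatgagt

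The E-box CACGTG was in the windows of HSPD1, HSPE1 and LONP1, and in 11.6% of the listed genes. The core of the heat shock element, GAANNTTC, was found for HSPD1 only among the 8 genes, and in 7.11% of the listed genes.
HSPE1, E-box in capitals, also in the HSPD1 window, chr2:197500347-197500372, plus strand: gtgattttttCACGTGtcgccagggc
HSPD1, heat shock core in capitals, chr2:197500063-197500090, minus strand: gcattttctgGAAAGTTCtggaaccgag

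The C/EBP-ATF element TGATGNAA, the cAMP response element TGACGTCA and the AP-1 element TGANTCA were in the windows of none of the 8 genes, and in 3.25%, 3.33% and 7.94% of the listed genes. GAANNTTC, CACGTG, TGACGTCA and TGANTCA read the same on both strands, and the site printed for DNAJA3 overlaps a further copy of the NRF1 element, whereas no other overlap between motifs was found in the sites printed. These letters were chosen after the HSPD1 and HSPE1 sequence had been seen, and a match is a description of the window, not a measured binding site. The windows of AFG3L2 and HTRA2 held none of the 6 motifs. The stretch of the AFG3L2 window that lies before its first exon is given here because AFG3L2 changed most among the 10 genes.
AFG3L2, chr18:12377315-12377477, minus strand: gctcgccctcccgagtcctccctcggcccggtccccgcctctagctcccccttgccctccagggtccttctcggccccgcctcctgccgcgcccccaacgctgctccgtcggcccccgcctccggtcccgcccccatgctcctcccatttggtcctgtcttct

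Across the 10 genes there was no common shift between KO and WT. LONP1 and DNAJA3 were called higher in KO, AFG3L2 was called lower, and the other 7 were not called (edgeR, Benjamini-Hochberg adjusted p under 0.05). Scaling by library totals gave 1 higher and 3 lower (2508 and 3615 of all genes). Correction for GC content and gene length gave 0 higher and 2 lower (2532 and 2499 of all genes). Among all 15104 tested genes 39.5% were called, 20.4% higher and 19.1% lower, so 3 of 10 was no more than the share of all genes. Among the 9034 tested genes at or above the level of the least expressed of the 10, the share called was 51.9%. The median log2 fold change of the 10 genes was −0.0089, beside −0.0042 for all tested genes. The median absolute log2 fold change was 0.16, against 0.29 for all tested genes. The latter were not matched to the 10 genes for level. With an unadjusted p under 0.05 and the fold bounds given in the study's methods, AFG3L2 was the only one to pass, against 12.2% of tested genes lower and 17% higher. None of the 10 passed as higher, although 3 of them had an unadjusted edgeR p under 0.05 in that direction, and DESeq2 called 1 higher at an adjusted p under 0.05. Both KO libraries lay above both WT libraries for LONP1, CLPP, HTRA2 and DNAJA3 (34.1% of all tested genes) and below them for HSPD1, CLPX, AFG3L2 and YME1L1 (34% of all tested genes), so that 8 of the 10 were without overlap beside 68.1% of all tested genes. In bulk RNA of this kind, fewer cells that express a gene and less RNA of it per cell cannot be told apart. The share of all counts that fell on the 10 genes was 0.171% and 0.166% in KO and 0.182% and 0.181% in WT, of which HSPD1 alone made up 0.101%, 0.0994%, 0.111% and 0.107%.

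**Figure D1:**
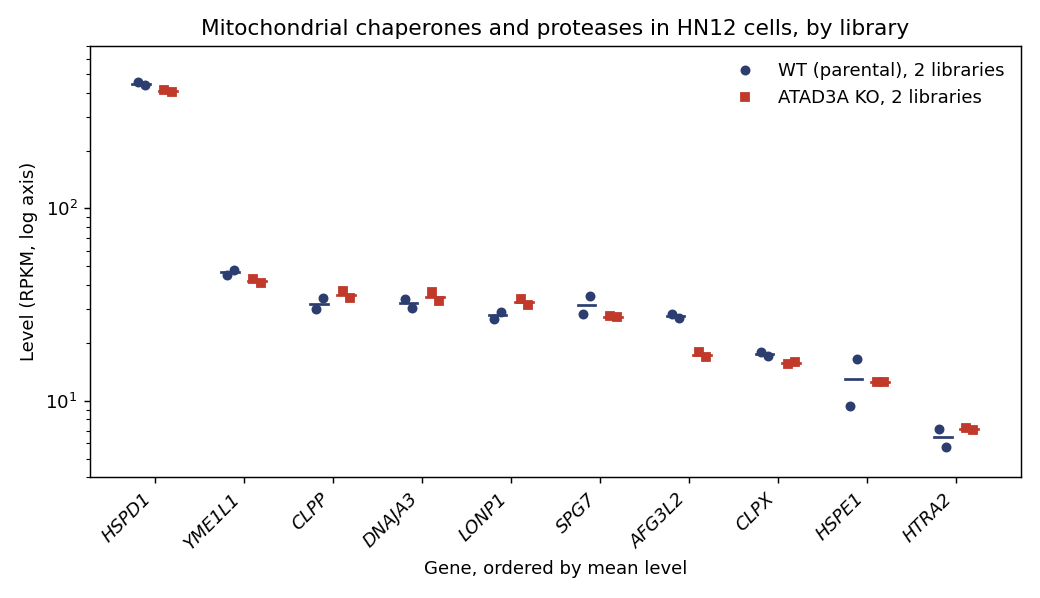
Level of each gene in RPKM on a log axis, with 1 point per library (circles WT, squares KO) and a bar at the mean of the 2 libraries. HSPD1 sits far above the rest, the 2 WT points of HSPE1 and SPG7 lie apart, and AFG3L2 shows the widest gap between KO and WT.

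Levels between genes were compared in RPKM, which corrects counts for gene length and library total. HSPD1 was the most abundant in every library, at 408 ± 4.84 RPKM (SD, n = 2) in KO and 444 ± 11.3 RPKM in WT, and ranked 105 among all genes by mean RPKM. YME1L1 followed at 42.0 ± 1.18 RPKM in KO and 46.5 ± 2.19 RPKM in WT. CLPP, DNAJA3 and LONP1 came next in KO, at 35.7, 34.8 and 32.5 RPKM, and neighbours in that order did not separate, since their libraries overlapped. In WT the neighbours DNAJA3, CLPP, SPG7, LONP1 and AFG3L2 overlapped in the same way, between 32.1 and 27.5 RPKM. AFG3L2 was at 17.4 ± 0.740 RPKM in KO, below SPG7 at 27.4 ± 0.386 RPKM with no overlap. CLPX was at 15.7 and 17.5 RPKM in KO and WT, HSPE1 at 12.5 and 12.9 RPKM, and HTRA2 was lowest at 7.13 and 6.44 RPKM.

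The chaperonin genes did not pass the test in either direction, although HSPD1 was called lower when scaled by library totals (−0.12, edgeR adjusted p = 0.0336). HSPD1 (chr2:197486581-197516737, minus strand, GRCh38) was at 1039 and 1018 CPM in KO and at 1088 and 1045 CPM in WT. The KO libraries were the lower pair by a narrow margin, and the log2 fold change was −0.05 ± 0.048 (SE; edgeR adjusted p = 0.418), with a 95% interval of −0.15 to 0.04. HSPE1 (chr2:197499994-197503457, plus strand) was at 12.2 CPM in both KO libraries and at 8.72 and 15.2 CPM in WT. Here the WT libraries lay on either side of KO, 0.81 apart on the log2 scale, and the estimate of 0.03 ± 0.187 (edgeR adjusted p = 0.908; 95% interval −0.34 to 0.41) was far less precise than that of HSPD1.

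The partner genes also differed widely in level. The ratio of HSPD1 to HSPE1 in RPKM was 32.9 and 32.3 in KO and 48.3 and 26.5 in WT. HSPE1 is the gene for which counting was least certain, because 52.9% of the 50-nt stretches of its longest transcript also occur, on either strand, in transcripts of other genes, 25.7% in those of HSPD1. For HSPD1 the share was 24.98%, most of it with the pseudogene HSPD1P1. Whether reads were counted by strand, and how shared reads were handled, is not given in the sources used here, and the part of this in the levels was not tested.

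DNAJA3 (chr16:4425805-4456775, plus strand), the J-domain co-chaperone of mitochondrial HSP70, was at 126 and 113 CPM in KO and 111 and 99.2 CPM in WT. The lower KO library was only just above the higher WT library. Its log2 fold change was 0.19 ± 0.071 (edgeR adjusted p = 0.033), a level 14.0% higher in KO. This call was lost in 9 of the 15 alternatives, among them DESeq2 (adjusted p = 0.112), GC and length correction (0.11, edgeR adjusted p = 0.195) and the fits without KO replicate 1 or WT replicate 2 (edgeR adjusted p = 0.29 and 0.442). HSPA9 itself, the partner of DNAJA3, was at 515 and 512 CPM in KO and 504 and 499 CPM in WT and was not called (0.03 ± 0.051; edgeR adjusted p = 0.648), but with GC and length correction it was called higher (0.13, edgeR adjusted p = 0.0119).

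Among the matrix proteases, LONP1 was higher in KO and its counterpart CLPP narrowly missed the threshold. LONP1 (chr19:5691834-5720572, minus strand), the ATP-dependent protease that also degrades TFAM and ALAS1, was at 112 and 104 CPM in KO and 84.3 and 91.7 CPM in WT. The pairs did not overlap, and the log2 fold change was 0.30 ± 0.072 (edgeR adjusted p = 9.81e-04; 95% interval 0.15 to 0.44), a level 22.9% higher in KO. CLPP (chr19:6361452-6368910, plus strand), the proteolytic barrel, was at 51.4 and 47.1 CPM in KO and 39.4 and 44.9 CPM in WT. Its KO libraries were also the higher pair, with 0.23 ± 0.095 (edgeR adjusted p = 0.0538). CLPX (chr15:65148219-65185342, minus strand), the unfoldase that feeds CLPP, was at 74.9 and 76.9 CPM in KO and 82.7 and 78.1 CPM in WT, a difference of −0.08 ± 0.076 (edgeR adjusted p = 0.413). The ratio of CLPP to CLPX in RPKM was 2.40 and 2.14 in KO and 1.66 and 2.0 in WT, and an exact test of 2 against 2 libraries cannot reach a p under 0.05.

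LONP1 and CLPP lie on the same chromosome and have a similar base composition. Both are on chromosome 19, where the median log2 fold change of the other 985 tested genes was 0.25, and 37.8% of those other than LONP1 were called higher, against 20.4% of all tested genes. Both have transcripts rich in G and C, at 62.9% and 64.3%. When GC content and gene length were corrected for, the LONP1 call was lost (0.04, edgeR adjusted p = 0.656) and the CLPP value changed sign (−0.17, edgeR adjusted p = 0.133). Without WT replicate 1, LONP1 stood at 0.24 (edgeR adjusted p = 0.0587). The part of the chromosome in these results was not tested.

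**Figure D2:**
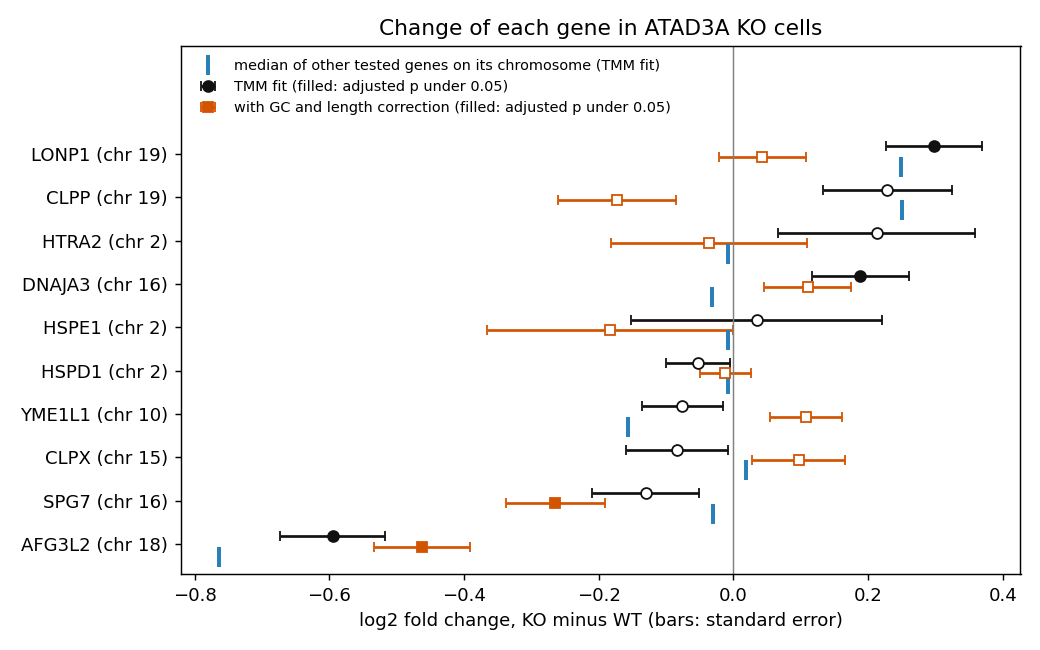
Log2 fold change (KO minus WT) of each gene with its standard error, in the TMM fit (black circles) and with GC and length correction (orange squares), filled where the adjusted p is under 0.05, beside the median of the other tested genes of its chromosome (blue ticks). LONP1 and CLPP lie close to the tick of chromosome 19 and move left with the correction, while AFG3L2 stays lower in both fits and lies near the tick of chromosome 18.

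Among the AAA proteases of the inner membrane AFG3L2 fell, with the largest change of the 10 genes, and SPG7 and YME1L1 were not called. AFG3L2 (chr18:12328944-12377314, minus strand), the subunit that can form the m-AAA protease alone, was at 61.9 and 58.1 CPM in KO and 93.2 and 88.1 CPM in WT. The KO pair lay far below the WT pair, with a log2 fold change of −0.60 ± 0.078 (edgeR adjusted p = 8.64e-08; 95% interval −0.75 to −0.44), so that its level fell by 33.8%. Of all tested genes, 21.6% had a larger absolute log2 fold change. The fall was called under each of the 15 alternatives run, with values between −0.67 and −0.46. SPG7 (chr16:89490719-89557768, plus strand), the partner subunit, was at 87.4 and 85.4 CPM in KO and 84.8 and 105 CPM in WT. Its groups overlapped because WT 1 lay below both KO libraries, and it was not called (−0.13 ± 0.079; edgeR adjusted p = 0.201). Without WT replicate 2 its value was 0.02 and without WT replicate 1 it was −0.27 (edgeR adjusted p = 0.898 and 0.0301), and with GC and length correction SPG7 was called lower (−0.26, adjusted p = 0.00444).

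AFG3L2 was also set against other inner membrane proteases of the same library. The ratio of AFG3L2 to SPG7 in RPKM was 0.647 and 0.621 in KO and 1.00 and 0.769 in WT. The ratio of AFG3L2 to YME1L1 was 0.417 and 0.409 in KO and 0.629 and 0.558 in WT. Both ratios were lower in each KO library than in each WT library, which was not tested. The ratio of AFG3L2 to OMA1, a further inner membrane protease, was 7.75 and 6.14 in KO and 7.65 and 6.72 in WT, with overlap. YME1L1 (chr10:27110112-27155266, minus strand), the i-AAA protease that also cleaves OPA1, was at 176 and 169 CPM in KO and 176 and 187 CPM in WT, and KO 1 and WT 1 differed by less than 0.1 CPM. It was not called (−0.08 ± 0.061; edgeR adjusted p = 0.349).

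AFG3L2 lies on a chromosome whose genes were mostly lower in KO. Of the other 194 tested genes of chromosome 18, 138 (71.1%) were called lower, beside 19.1% of all tested genes. Their median log2 fold change was −0.76, with an interquartile range of −1.05 to −0.45, and 64.4% of them lay below AFG3L2. The 52 others on the same side as AFG3L2 of the widest gap between tested genes had a median of −0.52, and 42.3% of them lay below AFG3L2, whereas the 142 on the far side had a median of −0.84. Among the 3 nearest tested genes on each side, IMPA2 (−0.35), SPIRE1 (−0.43) and CEP76 (−0.60) were called lower (edgeR adjusted p = 0.0209, 2.48e-04 and 0.00600). TUBB6, an abundant tubulin gene that overlaps AFG3L2, was at 401 and 371 CPM in KO and 396 and 409 CPM in WT and was not called (−0.06; edgeR adjusted p = 0.421). RP11-64C12.3 (0.72) and SLMO1 (0.40), both below 5 CPM in every library, were not called. TUBB6 transcripts hold 4.58% of the 50-nt stretches of AFG3L2. The part of the chromosome in the AFG3L2 result was not tested.

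**Figure D3:**
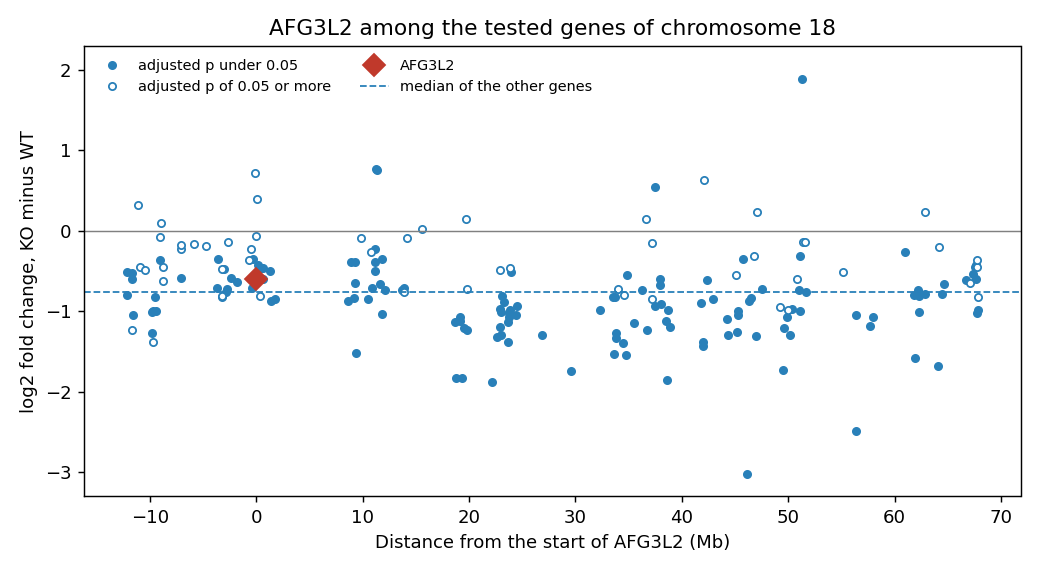
Log2 fold change (KO minus WT) of each tested gene of chromosome 18 against the distance in Mb of its lower coordinate from that of AFG3L2 (red diamond), filled where the adjusted p is under 0.05, with the median of the other genes as a dashed line. Most points lie below 0 along the whole chromosome, around the median of −0.76, and AFG3L2 at −0.60 lies among them.

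HTRA2 (chr2:74529377-74533348, plus strand), a serine protease of the intermembrane space that can also antagonize XIAP once released, was at 17.6 and 17.1 CPM in KO and 16.5 and 13.3 CPM in WT. The KO libraries were the higher pair by a margin smaller than the gap between the WT libraries, and it was not called (0.21 ± 0.147; edgeR adjusted p = 0.267). The value was 0.39 without WT replicate 1 and 0.066 without WT replicate 2, both uncalled. Of its 50-nt stretches, 39.6% occur in transcripts of other genes, 22.9% in those of the overlapping LOXL3.

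The other 7 genes were then set beside their own chromosomes. The median log2 fold change of the other tested genes was −0.01 on chromosome 2, which carries HSPD1, HSPE1 and HTRA2, 0.02 on chromosome 15 with CLPX, −0.03 on chromosome 16 with SPG7 and DNAJA3, and −0.16 on chromosome 10 with YME1L1. DNAJA3 was 0.22 above that median, as was HTRA2 with its uncalled value.

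Genes whose libraries followed the same pattern were sought among 9433 genes by the distance between centred log2 CPM values over the 4 libraries. Nearest to HSPD1 were EEFSEC, a selenocysteine elongation factor, EIF2S2, a subunit of the initiation factor eIF2, and PDIA3, a disulfide isomerase, at distances of 0.0025, 0.0079 and 0.0095. HSPE1, the partner of HSPD1, was at rank 8297 with a distance of 0.63, and the nearest of the 10 genes was CLPX at rank 178. In log2 CPM, WT 1 minus WT 2 was −0.81 for HSPE1 and 0.058 for HSPD1. The log2 fold changes (KO minus WT) of HSPE1 and HSPD1 were 0.03 and −0.05, neither called. Nearest to AFG3L2 were ADAT1 (0.0227), CHPT1 (0.0231) and CDK19 (0.030), and CLPX, again the nearest of the 10 genes, was at rank 3444. With 4 libraries such distances describe the libraries only.

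Of 10 further mitochondrial chaperone genes, 9 were tested, of which 2 were called higher, 1 lower and 6 not called, beside 39.5% of all tested genes called. Their median log2 fold change was 0.03, and the count higher was 1 without KO replicate 1, WT replicate 1 or WT replicate 2 and 3 without KO replicate 2. BCS1L, an AAA chaperone that assembles respiratory complex III, rose most among those called, from 20.8 and 23.1 CPM in WT to 42.5 and 31.5 CPM in KO (0.76 ± 0.124; edgeR adjusted p = 5.39e-06). TRAP1, the mitochondrial HSP90, was called higher with a smaller value (0.17 ± 0.067; edgeR adjusted p = 0.0369), and only 4 of the 15 alternatives kept the call, while 9 gave the same sign without it and GC and length correction, with or without the block, turned it to about 0 (−0.0040 and −0.0044). GRPEL2, a nucleotide exchange factor of HSPA9, was lower (−0.35 ± 0.101; edgeR adjusted p = 0.00509), and lost its call with GC and length correction (−0.14).

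Of 12 other mitochondrial proteases and peptidases, 3 were called higher, 4 lower and 5 not called (39.5% of all tested genes called, 20.4% higher and 19.1% lower), with a median log2 fold change of 0.0059. The count lower was 1 without WT replicate 1 and likewise without WT replicate 2, and GC and length correction gave 5 higher and 2 lower. PITRM1, which degrades presequence peptides, was at 82.5 and 84.1 CPM in KO and 48.9 and 48.1 CPM in WT (0.78 ± 0.081; edgeR adjusted p = 6.37e-10). PMPCA, a subunit of the presequence-cleaving peptidase, was also higher (0.49; edgeR adjusted p = 1.62e-07). ATP23 (listed under its older symbol XRCC6BP1) was lower (−0.75; edgeR adjusted p = 0.0212), a call that 3 of the 15 alternatives did not make, and its value ran from −1.10 to −0.47 when 1 library was left out. OMA1, the stress-activated protease that cleaves OPA1 and DELE1, was at 4.99 and 5.91 CPM in KO and 7.62 and 8.20 CPM in WT. OMA1 was called lower only narrowly (−0.54 ± 0.219; edgeR adjusted p = 0.0484), and 8 of 15 alternatives did not call it.

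Of 10 known partners and substrates of the proteases, 5 were called higher, 2 lower and 3 not called, beside 20.4% and 19.1% of all tested genes, with a median log2 fold change of 0.12. The count higher was 3 without KO replicate 1 or WT replicate 1, with GC and length correction and with DESeq2, and the count lower was 4 with library totals. The prohibitins PHB and PHB2, which surround the m-AAA protease, were among the 5 called higher. SMDT1, the uniporter subunit processed by the m-AAA protease, rose by 0.57 (edgeR adjusted p = 0.0124) and ALAS1, a LONP1 substrate, by 0.41 (edgeR adjusted p = 2.33e-04), and 5 of the 15 alternatives did not call SMDT1. OPA1, the inner membrane fusion GTPase cleaved by YME1L1 and OMA1, was at 125 and 124 CPM in KO and 190 and 191 CPM in WT. Its log2 fold change of −0.62 ± 0.061 (edgeR adjusted p = 1.95e-10) became −0.35 with GC and length correction. TFAM, the mitochondrial DNA packaging factor, fell by 0.52 (edgeR adjusted p = 1.22e-08), and stood at −0.28 with that correction.

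Regulators of mitochondrial stress signalling did not move one way. Of 11 genes, 3 were called higher, 3 lower and 5 not called, beside 20.4% and 19.1% of all tested genes, and the count lower was 1 without WT replicate 2. The transcription factors most often linked to the response were among those not called. ATF4 was at 531 and 496 CPM in KO and 471 and 483 CPM in WT (0.11 ± 0.053; edgeR adjusted p = 0.106), and was called higher without KO replicate 2 (0.17). ATF5 was at 18.9 and 19.0 CPM in KO and 15.5 and 16.8 CPM in WT (0.23 ± 0.138; edgeR adjusted p = 0.192). DDIT3 was at 7.32 and 11.3 CPM in KO and 9.82 and 7.19 CPM in WT, with overlap (0.12 ± 0.207; edgeR adjusted p = 0.687). CEBPB, a dimer partner of DDIT3 (0.66; edgeR adjusted p = 5.43e-10), and HSF1, the heat shock factor (0.46; edgeR adjusted p = 6.02e-07), were higher, with smaller values of 0.26 and 0.17 after GC and length correction. EIF2AK2 (−0.50; edgeR adjusted p = 2.57e-08) and EIF2AK4 (−0.25; edgeR adjusted p = 0.00307), kinases of eIF2α, were lower. With GC and length correction EIF2AK2 was at −0.18, and EIF2AK4 lost its call without WT replicate 2 (−0.21, edgeR adjusted p = 0.106).

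Chaperones of other compartments were examined for comparison. Of 12 cytosolic chaperones, 6 were called lower, 1 higher and 5 not called, beside 19.1% and 20.4% of all tested genes, with a median log2 fold change of −0.13, and 2 were lower by the thresholds of the study's methods. HSP90AB1, the most abundant, was at 2798 and 2707 CPM in KO and 3573 and 3443 CPM in WT. HSPA1A (−0.58; edgeR adjusted p = 8.82e-07) and HSPA1B (−0.62; edgeR adjusted p = 3.78e-09), inducible HSP70 genes, were lowest, but are near-identical copies whose counts are uncertain. HSPB1, the small heat shock protein HSP27, was the one called higher (0.51; edgeR adjusted p = 6.27e-09) and lost its call with GC and length correction. Of 12 chaperones of the endoplasmic reticulum (ER), 3 were called higher, 4 lower and 5 not called, beside 20.4% and 19.1% of all tested genes, and the fold bounds of the study's methods left none of the 4 that edgeR called lower. CRELD2 (0.63; edgeR adjusted p = 5.26e-05) and SDF2L1 (0.60; edgeR adjusted p = 1.17e-06) led those higher, of which SDF2L1 was not called with GC and length correction. DNAJB11, an ER co-chaperone (−0.38; edgeR adjusted p = 1.76e-05), and CANX, the lectin chaperone calnexin (−0.34; edgeR adjusted p = 3.65e-07), led those lower. With GC and length correction these were at −0.15 and −0.17, and DNAJB11 lost its call once the replicate block was added (edgeR adjusted p = 0.0522). HSPA5 (BiP) was at 917 and 925 CPM in KO and 1006 and 966 CPM in WT and was not called (−0.10 ± 0.048; edgeR adjusted p = 0.103), whereas scaling by library totals gave −0.17 with a call (adjusted p = 0.00388).

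**Figure D4:**
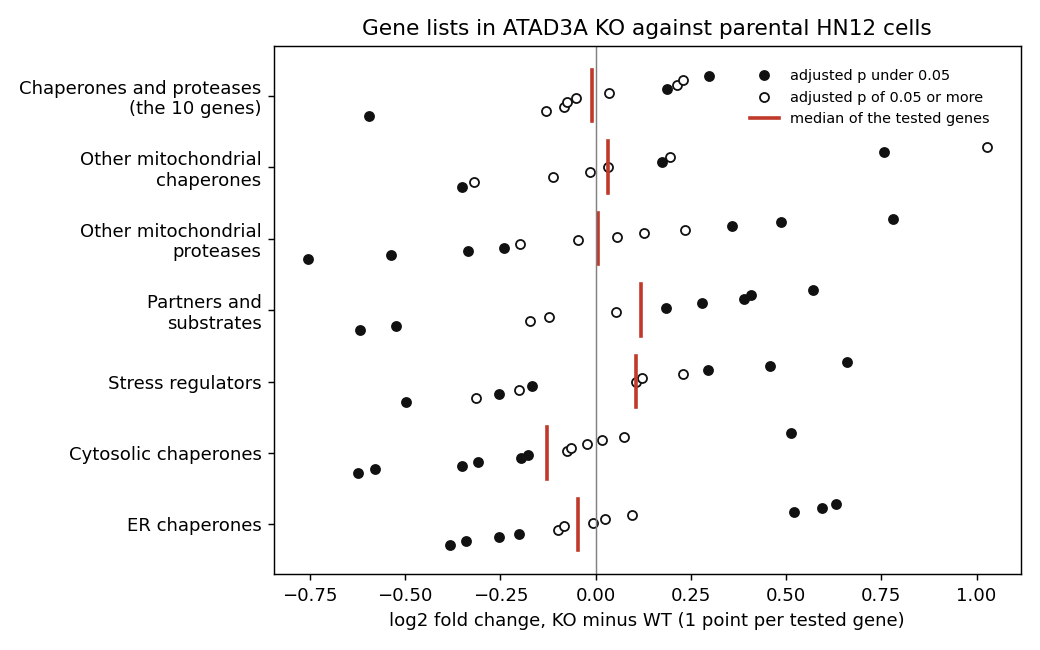
Log2 fold change (KO minus WT) of every tested gene in each list, with 1 point per gene, filled where the adjusted p is under 0.05, and a red bar at the median of the list. The 10 genes lie within 0.30 of 0 apart from AFG3L2 at −0.60, and each of the other lists holds called genes on both sides of 0.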

How the data were processed

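The authors extracted RNA with Trizol, sequenced 50-nt reads and deposited raw read counts per gene without normalization, together with RPKM values, which are these counts scaled to gene length and library total. The submitters' processing notes name CASAVA, STAR 2.5, HTSeq, edgeR 3.16.5, DESeq2 and the build hg19 without their roles, and the annotation and use of strand are not given in the sources used here. The 4 libraries were grouped by their labels as KO and WT, with 2 independent cultures each.

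From the counts, genes were filtered with filterByExpr, scaled by TMM (factors 0.975 to 1.03) and tested with the two-sided quasi-likelihood test of edgeR 4.0.16 (R 4.3.3), with Benjamini-Hochberg adjustment over all 15104 tested genes. Standard errors were derived from each fold change and its F value. The biological coefficient of variation was 5.88%. The floor of 3 counts was 0.162 to 0.215 CPM. A DESeq2 1.42.0 fit and limma 3.58.1 on log2(RPKM + 1) and log2(RPKM + 0.1) were alternatives, as were DESeq2's size factors, library totals, no filter, a minimum of 10 counts per library, the replicate number as a block, offsets for GC content and length (splines of 4 degrees of freedom, with and without the block), the thresholds of the study's methods, and leaving out each library. The scripts were tested on simulated counts. The number of libraries limits the precision of every value.

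The files hold no coordinates. Positions and GC content (for 97.2% of tested genes) came from GENCODE release 29 on GRCh38 by gene identifier, and promoter windows from RefSeq. The 10 genes and the gene lists were chosen with earlier results of these data known. Named beyond the 10 genes were the ATAD3 genes, HSPA9, TRAP1, OMA1, ATF4, ATF5, DDIT3 and HSPA5, the 2 highest and 2 lowest called genes of each list, the most abundant marker of each cell type, the 3 nearest tested neighbours of AFG3L2 on each side, and the 3 nearest profiles of HSPD1 and AFG3L2. PHB, PHB2, HSP90AB1 and the marker genes beyond the most abundant were named after their values were seen.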

Additional observations from a re-analysis of the deposited data

How the results depend on the processing

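AFG3L2 kept its direction and call under all 15 alternatives, the largest adjusted p being 7.98e-04. The count called higher, 2 as reported, was 1 with library totals, DESeq2 and either limma fit, 0 with GC and length correction (0 at an unadjusted p under 0.05 in edgeR, with or without the block) and 0 with the thresholds of the study's methods, and ranged from 1 to 3 when one library was left out. The count called lower, 1 as reported, was 3 with library totals, 2 with GC and length correction with or without the block, and 1 to 2 when one library was left out. The count of all genes called was 3074 higher and 2891 lower, and 2508 and 3615 with library totals, which moved the median of all genes to −0.07, and 2565 and 1847 with the thresholds of the study's methods.

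With library totals HSPD1 became called lower (−0.12), as did SPG7 (−0.20), HSPE1 turned to −0.036 and DNAJA3 lost its call (0.12). With GC and length correction LONP1 (0.043) and DNAJA3 (0.11) lost their calls, SPG7 gained one (−0.26), and HSPE1 (−0.18), CLPP (−0.17), CLPX (0.10), HTRA2 (−0.036) and YME1L1 (0.11) changed sign without a call. With the replicate block added to that correction the values were 0.043 for LONP1, 0.11 for DNAJA3, −0.26 for SPG7, −0.15 for HSPE1, −0.17 for CLPP, 0.10 for CLPX, −0.031 for HTRA2 and 0.11 for YME1L1. CLPP was called at 0.23 with at least 10 counts in every library, at 0.30 without KO replicate 2 and at 0.32 without WT replicate 2. DNAJA3 was not called by DESeq2 (0.19) or limma (0.12 with either pseudocount), and neither LONP1 (0.30) nor DNAJA3 (0.19) passed the thresholds of the study's methods. Leaving out each library in turn gave −0.083 to −0.019 for HSPD1, −0.13 to −0.038 for CLPX, −0.12 to −0.032 for YME1L1, −0.32 to 0.48 for HSPE1, 0.24 to 0.37 for LONP1, 0.14 to 0.32 for CLPP, 0.066 to 0.39 for HTRA2, −0.27 to 0.024 for SPG7 and 0.11 to 0.28 for DNAJA3. Among the other named genes, HSPA9 turned to −0.036 with library totals and either limma fit but was called higher at 0.13 with GC and length correction, with or without the block, and with GC and length correction TRAP1 turned to −0.0040 (−0.0044 with the block), ATF4 to −0.10 (−0.10), ATF5 to −0.027 (−0.026) and DDIT3 to −0.062 (−0.078), while DDIT3 ranged from −0.21 to 0.42 with one library left out. The cause of these changes was not tested.

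With the replicate number as a block the counts stayed at 2 higher and 1 lower (3010 and 2810 of all genes) and the median of the 10 genes was 0.0077. The labels link KO and WT libraries by number only, and whether those of one number shared a batch is not given. The differences between replicates 1 and 2 of KO and of WT correlated at −0.0555 over 11222 genes, which describes these libraries only. HSPE1 and HTRA2 had the lowest counts of the 10 genes, at 135 to 324 per library.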
